A study of Mus musculus with 18 samples.

Results

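Wild-type mammary organoids grown with EGF were compared with wild-type mammary organoids grown with a Wnt signal and R-spondin 2. The comparison takes 6 of the 18 sequenced libraries, 3 per medium, and every gene with enough reads to be tested, which was 17092 of the 55536 genes in the count table. Per the labels, the organoids are mammary epithelial cells from glands of C57BL/6 mice of 6 to 7 weeks, wild type (WT), plated in matrigel, a gel of basement membrane proteins. The base medium was DMEM/F12 with Insulin-Transferrin-Selenium. The EGF medium held EGF at 2.5 nM. The RW medium held NGS-Wnt, a surrogate ligand that joins the 2 kinds of Wnt receptor, at 0.1 nM and Rspo2 at 8.3 nM, and no EGF. Both treatments lasted 5 days. The WT group ERW received all of these factors for as long, and its levels are given beside the others in places without a test. The remaining 9 libraries are RasGRP1-/- organoids in the same 3 media, which entered the fit and 1 test of genotype. No library without added factors was analysed here, so a difference can come from either medium, and the labels do not say whether the 3 libraries of a group came from separate mice. Each library carries a batch number, 1 to 3, which is also its replicate number, and each batch holds 1 library of every group.

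Wnt ligands bind Frizzled receptors and the coreceptors Lrp5 and Lrp6, which keeps beta-catenin from being degraded and lets it act with TCF/LEF factors on target genes, several of which encode inhibitors of the same pathway. R-spondins bind Lgr receptors and take away the ubiquitin ligases Rnf43 and Znrf3, which otherwise remove Frizzled from the membrane. EGF binds the EGF receptor and activates Ras, the kinase ERK and ETS family transcription factors, and ERK also induces phosphatases and Sprouty proteins that limit it. The mammary epithelium has an outer basal layer of contractile cells and an inner luminal layer with hormone-sensing cells and milk-forming progenitors, and both signals are known to act on the cells from which it grows.

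The 6 libraries held 28345745 to 31269899 counts and 20292 to 21716 genes with a count, and mitochondrial genes took 1.415% to 2.184% of them. Epithelial identity was checked on keratins. Krt8, a luminal keratin, stood at 596, 783 and 711 CPM (the usual depth-scaled count, computed on the effective library size) in EGF batches 1, 2 and 3 and at 550.5, 641 and 643 in the RW libraries, and Krt14, a basal keratin, was above 1000 CPM in every library. Genes of other cell types were present as well, given here as sums over several markers, which do not compare with single keratins. The summed CPM of 15 fibroblast markers was 3303, 1279 and 2375 in EGF and 2947, 1146 and 1353 in RW, and that of 14 endothelial markers was 567, 644 and 713 and 476, 542 and 394. Of these, 3 fibroblast and 2 endothelial markers were called higher and 1 and 0 lower, by the test given next. The lymphocyte genes Cd3e, Cd3d, Cd8a and Ms4a1 had 0 counts in all 6 libraries. In RNA from whole cultures, fewer cells of a type and less RNA of a gene per cell cannot be told apart, and the part of cell proportions in the differences below was not tested.

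Of 17092 genes, 2639 (15.4%) differed at an adjusted p under 0.05 in edgeR's quasi-likelihood test with the batch as a term. In EGF medium 1457 genes (8.52%) were higher and 1182 (6.92%) were lower than in RW medium. These 2 shares are the background for every count of genes below that comes from this fit. The gene lists were chosen with earlier results of these data known, so a list share above the background is no independent support. Counts from other settings have their own backgrounds. DESeq2 called 1683 genes higher and 1446 lower, the 6 compared libraries alone 1392 and 1085, and the 9 WT libraries 1690 and 1364. An unadjusted p under 0.05 was reached by 4514 genes in edgeR. The counts without the batch term and without batch 3 stand near the end of this paragraph. Differences are log2 EGF minus RW with their standard error (SE), so a negative value means lower in EGF medium. A change of at least 2-fold, or 1 on the log2 scale, was reached by 398 of the higher and 354 of the lower genes. The difference had the same sign in all 3 batch pairs for 2627 of the 2639. The 3 EGF libraries all lay above the 3 RW libraries for 1956 genes (11.4%) and all below for 1860 (10.9%). Genes called higher made up 25.24% of all CPM in EGF medium and 16.72% in RW medium, and genes called lower 8.527% and 13.07%. Without the batch term 888 genes were called, 543 higher and 345 lower, and without batch 3 the count was 969, 639 higher and 330 lower. A permutation test of a single gene with 3 against 3 libraries, without regard to batch, cannot go below p = 0.1. Swapping the media only within batches has a higher floor. Each call therefore rests on the spread that the model estimates over all 18 libraries and shares between genes.

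**Figure D1:**
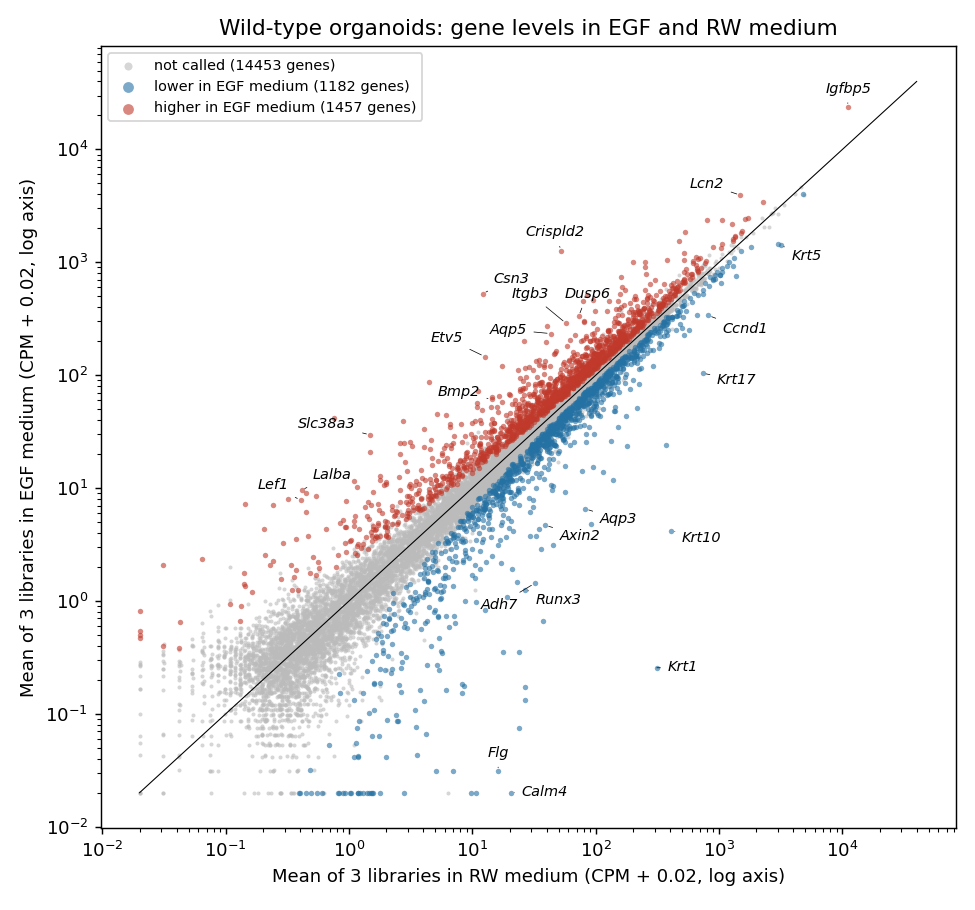
Each point is 1 of 17092 tested genes, with its mean CPM over 3 RW libraries on the x axis and over 3 EGF libraries on the y axis, both as CPM + 0.02 on log axes; colours mark the 1457 genes called higher and the 1182 called lower in EGF medium. The points farthest below the diagonal include the epidermal genes Krt1 and Calm4, and those farthest above include Csn3 and Bpifb5.

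The Wnt pathway showed opposite changes among its own members. Of 31 tested feedback and target genes, 6 were called higher and 8 lower in EGF medium, with a median log2 of -0.19 beside -0.011 over all tested genes. Without the batch term 3 and 5 were called, and without batch 3 4 and 5. Axin2, the scaffold of the beta-catenin destruction complex and a widely used reporter of the pathway, stood at 4.48, 5.05 and 4.45 CPM in EGF libraries and 20.7, 41.7 and 54.4 in RW libraries (log2 -2.91 ± 0.41 SE, edgeR adjusted p = 0.000356). The lowest RW library was well above the highest EGF library. Apcdd1, a membrane inhibitor of Wnt, stood at 9.93, 15.996 and 11.4 CPM against 30.7, 39.7 and 33.5 (log2 -1.48 ± 0.24). Wif1, a secreted Wnt-binding inhibitor, fell by more in level, from 144 ± 34.5 CPM in RW to 52.3 ± 10.3 in EGF (SD, n = 3; log2 -1.46 ± 0.17). Nkd1, which binds Dishevelled, had log2 -1.37 ± 0.30 and Notum, an enzyme that removes the lipid from Wnt proteins, -1.96 ± 0.62. Against these, Sfrp1, a secreted Wnt-binding antagonist, was at 323, 276 and 294 CPM in EGF and 97.8, 81.3 and 60.5 in RW (log2 1.92 ± 0.22, edgeR adjusted p = 8.69e-05), with no overlap. Lef1, the transcription factor that partners beta-catenin, was at 12.1, 2.701 and 8.61 CPM in EGF and 0.852, 0 and 0.299 in RW (log2 5.02 ± 0.82, edgeR adjusted p = 0.000599). All 3 EGF libraries were above the RW libraries for Lef1, but they differed widely among themselves. With 1 library or 1 batch left out the adjusted p was over the threshold, at most at the value given, for Nkd1 (0.182, without batch 3) and Notum (0.372, without batch 1), and without the batch term it was over the threshold for Notum (0.177) and Lef1 (0.168).

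Ligands and receptors of the pathway also differed. Of 12 tested ligand genes 5 fell and 1 rose (0 higher and 2 lower without the batch term, 0 and 2 without batch 3), with a median log2 of -0.57. Wnt10a, a ligand of skin and mammary epithelium, was at 15.2, 8.87 and 7.96 CPM in EGF and 34.9, 55.6 and 39.4 in RW (log2 -1.98 ± 0.27, edgeR adjusted p = 0.000128). Wnt5b, usually placed outside the beta-catenin branch, was at 92.7, 96.01 and 109 against 160.2, 123 and 158 CPM (log2 -0.55 ± 0.11). Of 20 receptor and R-spondin genes 6 rose and 3 fell (2 higher and 2 lower without the batch term, 2 and 2 without batch 3). The coreceptors were higher in EGF medium: Lrp5 was at 643 ± 66.05 CPM against 356 ± 14.1 (log2 0.85 ± 0.07) and Lrp6 at 346 ± 52.8 against 217 ± 10.9 (log2 0.66 ± 0.09; SD, n = 3). Rspo1, an R-spondin that the cells transcribe themselves, was at 1.504, 1.79 and 2.42 CPM in EGF and 11.97, 11.4 and 11.4 in RW (log2 -2.62 ± 0.37, edgeR adjusted p = 7.59e-05). Ror1, a receptor of the branch without beta-catenin, was lower (log2 -1.27 ± 0.12). The R-spondin receptors differed from one another, with log2 0.45 ± 0.11 for Lgr4, 0.33 ± 0.10 for Lgr6 and -0.66 ± 0.14 for Lgr5. Of the genes named here, the call was lost in at least 1 leave-out for Lgr4 (0.151, without batch 3), Lgr6 (0.282, without EGF library 3) and Lgr5 (0.0995, without batch 3), where the value is the highest adjusted p. Without the batch term it was lost for Wnt5b (0.0869), Lgr4 (0.286), Lgr6 (0.377) and Lgr5 (0.227).

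Tnfrsf19, also called Troy, is a receptor gene known as a Wnt target, and its promoter is shown because it holds the TCF/LEF motif searched for below. It stood at 0.234, 0.772 and 0.622 CPM in EGF libraries and 2.79, 3.83 and 4.88 in RW libraries, a low level without overlap between the groups (log2 -2.93 ± 0.49, edgeR adjusted p = 0.000424; 0.0533 without the batch term). The 250 bases before the start of the first of its 2 RefSeq promoters (chr14:61037988-61038237, GRCm38, minus strand) are printed 5′ to 3′ along the gene, and capitals mark CTTTGAT read on the other strand, 202 bases before the start.
Tnfrsf19: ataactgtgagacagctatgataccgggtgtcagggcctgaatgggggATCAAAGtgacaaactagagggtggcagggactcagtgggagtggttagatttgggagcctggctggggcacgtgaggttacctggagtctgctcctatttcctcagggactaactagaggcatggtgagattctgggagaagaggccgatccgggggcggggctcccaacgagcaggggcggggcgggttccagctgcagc

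Several genes known to answer to ERK rose in EGF medium. Of 23 tested feedback and target genes 10 rose and 1 fell, with a median log2 of 0.74 (7 higher and 1 lower without the batch term, 5 and 1 without batch 3). Etv5, an ETS transcription factor of the PEA3 family, stood at 160.2, 106 and 173 CPM in EGF libraries and 11.9, 13.98 and 11.7 in RW libraries (log2 3.51 ± 0.26, edgeR adjusted p = 2.29e-06). The other family members moved the same way, Etv1 with log2 3.83 ± 0.20 and Etv4 with 1.77 ± 0.23. Dusp6, the phosphatase that acts on ERK, was at 349, 421 and 229 CPM against 59.999, 66.8 and 91.3 (log2 2.13 ± 0.50). Its EGF libraries all lay above its RW libraries. Spred1, an inhibitor of Ras activation, had log2 0.90 ± 0.10. Il17rd, a membrane inhibitor of the same cascade, went the other way, with 11.3, 11.3 and 7.17 CPM in EGF and 19.02, 31.7 and 19.02 in RW (log2 -1.20 ± 0.19, edgeR adjusted p = 0.000227). Among 25 tested AP-1 and immediate early genes Ier3 rose and the other 24 were not called, with a median log2 of -0.08 (4 at an unadjusted p under 0.05, 2 called by DESeq2). Over all 17092 tested genes 4514 had an unadjusted p under 0.05 and DESeq2 called 3129. The calls in this list depended on the libraries fitted. With the 6 compared libraries alone 2 members were called higher and 5 lower. The counts were 3 and 6 with the 9 WT libraries, and 1 and 4 without batch 2. Over all genes, the fit without batch 2 called 1162 higher and 945 lower. Egr1 was at 2071 ± 442 CPM in EGF and 2529 ± 375 in RW, after dissociation of the organoids with an enzyme before RNA was taken. Leave-outs ended the call of Dusp6 (0.174, without batch 3) and Ier3 (0.158, without batch 3), and leaving the batch out of the model that of Ier3 (0.204), where the values are adjusted p.

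Of 9 tested ligand genes of the EGF receptor family 4 rose and 5 were not called (median log2 0.81; 2 rose without the batch term and 1 without batch 3). Nrg2, a neuregulin that binds ErbB3 and ErbB4, stood at 2.51, 4.42 and 4.22 CPM in EGF libraries and 0, 0.829 and 0.498 in RW libraries (log2 3.29 ± 0.50, edgeR adjusted p = 0.000176). Its level in ERW medium was 2.49, 6.09 and 5.92 CPM. Nrg1, a second neuregulin, was at 11.3, 11.3 and 18.01 against 2.39, 12.8 and 4.78 CPM (log2 1.17 ± 0.35), and its groups overlapped. Areg, the ligand known for duct growth under estrogen, was at 46.997, 40.6 and 28.98 against 15.2, 24.5 and 17.9 CPM (log2 1.04 ± 0.29), and Tgfa had log2 0.63 ± 0.14. Among the receptors, Erbb4 was at 3.18 ± 1.26 CPM in EGF and 4.24 ± 0.560 in RW (log2 -0.55 ± 0.36, edgeR adjusted p = 0.373) and was not called. Of 14 genes for receptors and their restraints 2 rose and 1 fell. The balance turned with the scaling, to 1 higher and 2 lower with the size factors of DESeq2 or the upper quartile, and without batch 3 none was called by edgeR. Lrig1, a membrane protein that lowers EGF receptor levels, was at 296, 373 and 422 CPM in EGF and 199.7, 196 and 204 in RW (log2 0.84 ± 0.16). The ligand calls were not all robust: the highest adjusted p with 1 library or batch left out was over the threshold for Nrg1 (0.451, without batch 3), Areg (0.117, without RW library 1), Tgfa (0.0707, without batch 3) and Lrig1 (0.0808, without batch 3). Without the batch term the call was lost for Nrg1 (0.284) and Tgfa (0.619).

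**Figure D2:**
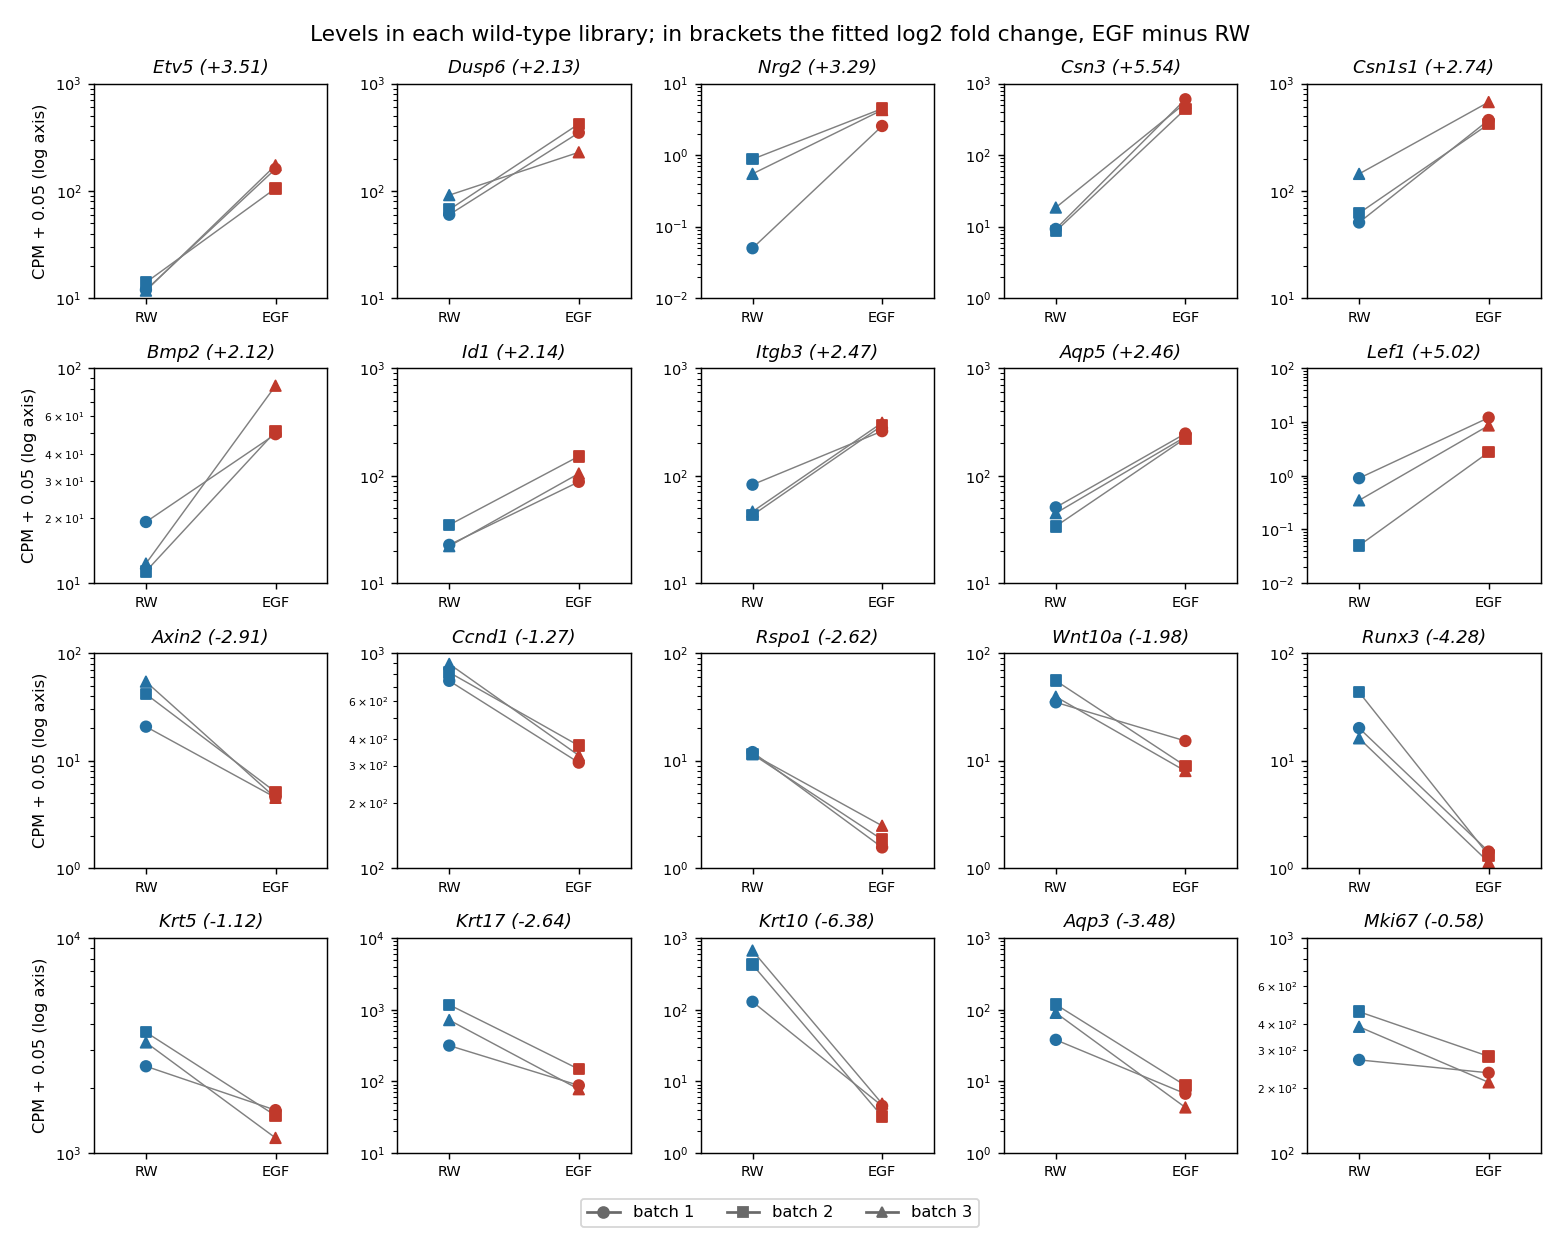
CPM of 20 genes in each of the 6 libraries, as CPM + 0.05 on a log axis, with lines joining the EGF and RW library of the same batch. Etv5, Nrg2, Csn3, Bmp2 and Aqp5 are higher in EGF medium in all 3 pairs, and Axin2, Ccnd1, Rspo1, Wnt10a, Runx3, Krt5, Krt17, Krt10 and Aqp3 are lower in all 3.

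Genes of the TGF-beta and BMP pathway that passed the test all rose. Of 38 tested members 13 rose and 25 were not called, with a median log2 of 0.34 (7 rose without the batch term, 7 without batch 3). Bmp2, a BMP ligand, stood at 49.4, 50.8 and 83.1 CPM in EGF libraries and 19.2, 11.3 and 12.3 in RW libraries (log2 2.12 ± 0.31, edgeR adjusted p = 0.000430). Id1 and Id3, inhibitors of helix-loop-helix factors that BMP signals induce, had log2 2.14 ± 0.57 and 1.92 ± 0.48. Id1 was at 87.8, 152 and 105 CPM in EGF and 22.7, 34.8 and 22.04 in RW and its groups did not overlap. Among TGF-beta ligands, Tgfb1 was at 155 ± 6.74 against 103 ± 15.3 CPM (log2 0.59 ± 0.09) and Tgfb3 at 704 ± 142 against 303 ± 12.1 (log2 1.21 ± 0.20; SD, n = 3). Inhbb, the subunit of activin B, was at 423, 336 and 428 against 272, 219 and 246 CPM (log2 0.68 ± 0.07). Ltbp2, a microfibril protein related to the binding proteins of latent TGF-beta, had 1 of the larger gains in level, 828, 1043 and 1155 CPM against 292, 159 and 152 (log2 2.43 ± 0.31, edgeR adjusted p = 0.000227). The highest adjusted p in a leave-out was over the threshold for Id1 (0.244, without batch 3), Id3 (0.343, without batch 3) and Tgfb3 (0.0567, without batch 3). The value without the batch term was over it for Id1 (0.115) and Id3 (0.266).

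Receptors for other growth factors differed too. Fgfr1, an FGF receptor, stood at 1167, 1004 and 986 CPM in EGF libraries and 453, 429 and 261 in RW libraries (log2 1.51 ± 0.12, edgeR adjusted p = 3.01e-07). Fgfbp1, which carries FGFs from the matrix, was lower, at 12.1 ± 2.999 CPM in EGF and 38.4 ± 5.19 in RW (log2 -1.69 ± 0.22; SD, n = 3). In all 1 of 12 tested FGF genes rose and 3 fell (1 higher and 1 lower without the batch term, 1 and 1 without batch 3). Of 14 genes of the IGF system 8 rose and 1 fell (2 higher and 1 lower without the batch term, 5 and 1 without batch 3). Igf1r, the IGF1 receptor, had log2 0.51 ± 0.10, Igf2r, which clears IGF2, 0.94 ± 0.09, and Irs1, the adaptor of both insulin and IGF1 receptors, 0.54 ± 0.07. Igfbp5, an IGF-binding protein, was the gene with the largest gain in level among those that pass the naming rule, at 26262, 20211 and 24783 CPM in EGF and 15993, 7385 and 9638 in RW (log2 1.20 ± 0.17). Igfbp2, a related binding protein, was at 17.9, 17.5 and 18.5 against 29.2, 48.6 and 57.5 CPM (log2 -1.28 ± 0.18, edgeR adjusted p = 0.000144). Of 21 Notch pathway genes 3 rose and 3 fell (1 higher and 0 lower without the batch term, 1 and 1 without batch 3), and Hey1, a target of Notch and of BMP signals, was at 196, 213 and 182 CPM in EGF and 48.7, 32.6 and 36.4 in RW (log2 2.34 ± 0.24). No named gene of this paragraph lost its call when 1 library or 1 batch was left out, and without the batch term the calls of Igf1r (0.0517) and Igfbp5 (0.156) were lost.

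Milk protein genes were among the largest rises. Of 23 tested genes for milk proteins and lipid secretion 8 rose and 1 fell, with a median log2 of 0.48 (7 higher and 0 lower without the batch term, 6 and 1 without batch 3). Csn3, kappa-casein, stood at 605, 441 and 536 CPM in EGF libraries and 9.25, 8.597 and 18.5 in RW libraries (log2 5.54 ± 0.36, edgeR adjusted p = 1.48e-06). Lalba, the alpha-lactalbumin subunit of lactose synthase, was at 5.95, 8.35 and 14.4 against 0.295, 0.414 and 0.465 CPM (log2 4.56 ± 0.40). Both had no overlap. Csn2, beta-casein, was at 0.301, 0.561 and 0.524 CPM in EGF and 0.0328, 0 and 0.0996 in RW and was not called (log2 3.79 ± 1.60, edgeR adjusted p = 0.132). Mfge8, a protein of milk fat globules, was at 1857, 2292 and 2954 against 772, 826 and 797 CPM (log2 1.56 ± 0.14). Prlr, the prolactin receptor, was at 201 ± 19.8 against 89.9 ± 10.1 CPM (log2 1.16 ± 0.14; SD, n = 3). Elf5, the luminal factor that acts with prolactin signals, was at 309 ± 66.7 against 338 ± 28.98 CPM and was not called. Ltf, lactotransferrin, was the member that fell (log2 -0.99 ± 0.13), with overlapping groups and an adjusted p of 0.237 without the batch term.

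Csn1s1, alpha-S1-casein, stood at 458, 420.0 and 673 CPM in EGF libraries and 50.8, 62.01 and 144 in RW libraries (log2 2.74 ± 0.23, edgeR adjusted p = 6.68e-06), and at 428, 553 and 851 CPM in ERW libraries. Its gene lies at chromosome 5, 87666208 to 87682578 (GRCm38). The bases before its start (chr5:87665958-87666207, plus strand, RefSeq) are shown because casein promoters are classic targets of STAT5, and capitals mark the STAT motif TTCNNNGAA, 100 bases before the start.
Csn1s1: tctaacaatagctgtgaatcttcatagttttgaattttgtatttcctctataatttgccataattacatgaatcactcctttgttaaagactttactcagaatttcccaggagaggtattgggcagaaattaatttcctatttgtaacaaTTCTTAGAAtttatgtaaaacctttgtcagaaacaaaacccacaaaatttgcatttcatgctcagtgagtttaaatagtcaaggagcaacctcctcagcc

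Of 18 tested luminal progenitor markers 11 rose and 3 fell (median log2 0.71; 9 higher and 1 lower without the batch term, 9 and 3 without batch 3), and Csn3, Mfge8, Lcn2, Elf5 and Ltf stand on both this list and that of milk genes. Tspan8, a tetraspanin, was at 227, 150.0 and 241 CPM in EGF and 71.9, 47.6 and 65.1 in RW (log2 1.74 ± 0.19, edgeR adjusted p = 3.84e-05). Aldh1a3, a retinaldehyde dehydrogenase used to mark progenitors, was at 1041, 1175 and 1384 against 641, 464 and 457 CPM (log2 1.21 ± 0.17) and at 520.1, 473 and 461 in ERW libraries. Itga2, the alpha2 integrin, had log2 0.92 ± 0.14, and Nfib, a nuclear factor I protein, 0.55 ± 0.07. Ehf, an ETS factor of the luminal layer, fell from 665 ± 86.6 CPM in RW to 339 ± 70.6 in EGF (log2 -0.98 ± 0.11; SD, n = 3). Kit, the receptor often used to sort these cells, was at 1023 ± 278 against 1151 ± 119.9 CPM and was not called (log2 -0.20 ± 0.14). Of 17 hormone-sensing markers 7 rose and 1 fell (4 higher and 1 lower without the batch term, 4 and 0 without batch 3). Cited1, a coactivator found in estrogen-receptor-positive cells, was at 14.1, 11.96 and 11.4 CPM in EGF and 3.11, 2.52 and 1.89 in RW (log2 2.31 ± 0.28). Stc2, stanniocalcin 2, had log2 0.85 ± 0.16. Esr1 and Pgr, the estrogen and progesterone receptors, had log2 0.59 ± 0.18 and 0.51 ± 0.13. With 1 library or batch left out the highest adjusted p was over the threshold for Esr1 (0.228, without batch 2) and Pgr (0.189, without batch 3), and without the batch term the call was lost for Ltf (0.237), Esr1 (0.304) and Pgr (0.493).

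The basal keratins Krt5, Krt14 and Krt15 fell, while the integrin genes Itga3 and Itgb1 rose. Of 22 tested basal markers 6 rose and 9 fell (median log2 -0.24; 4 higher and 7 lower without the batch term, 5 and 6 without batch 3). Krt5, the keratin partner of Krt14, stood at 1580.5, 1491 and 1173 CPM in EGF libraries and 2531, 3647 and 3268 in RW libraries (log2 -1.12 ± 0.17, edgeR adjusted p = 0.000371). Krt14 was at 1456, 1601 and 1302 against 2434, 3542 and 2985 CPM (log2 -1.02 ± 0.11). Krt15, a keratin of basal progenitor cells in several epithelia, was at 21.7, 13.96 and 10.1 against 67.3, 80.3 and 137 CPM (log2 -2.60 ± 0.37). Trp63, the transcription factor that maintains basal cells, was at 75.6 ± 10.8 CPM in EGF and 133 ± 19.9 in RW (log2 -0.82 ± 0.14; SD, n = 3). In contrast Itga3 and Itgb1, integrin subunits that bind laminin and other matrix proteins, had log2 0.71 ± 0.10 and 0.50 ± 0.06. Of 15 contractile genes of myoepithelial cells 2 rose and 13 were not called (0 higher and 0 lower without the batch term, 1 and 0 without batch 3). Acta2, smooth muscle actin, was at 794, 820.3 and 754 CPM in EGF and 651, 651 and 716 in RW (log2 0.22 ± 0.18, edgeR adjusted p = 0.500). No leave-out ended the call of a called gene named here, and neither did the fit without the batch term.

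Of 14 luminal keratin and adhesion genes 2 rose and 5 fell, but only 0 and 1 without the batch term. Krt23, the member with a stable call, was at 4.88, 14.3 and 11.9 CPM in EGF and 30.8, 40.5 and 62.5 in RW (log2 -2.19 ± 0.23, edgeR adjusted p = 1.23e-05). Krt18, the partner of Krt8, was at 947 ± 146 against 758 ± 74.8 CPM and was not called. Of 16 genes proposed as mammary stem cell markers 4 rose and 5 fell (3 higher and 3 lower without the batch term, 2 and 3 without batch 3). Itgb3, the beta3 integrin, rose, at 261, 294 and 312 CPM in EGF and 82.6, 42.9 and 46.3 in RW (log2 2.47 ± 0.35, edgeR adjusted p = 0.000619). Bcl11b, a zinc finger factor of quiescent basal cells, fell, at 32.4, 41.9 and 16.7 against 87.1, 135 and 70.7 CPM (log2 -1.71 ± 0.23). Aldh1a1, a retinaldehyde dehydrogenase, fell too (log2 -1.92 ± 0.40). Axin2 also stands on this list, so that its called members went in both directions.

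More than 10 genes of early epidermal differentiation fell, with Krt1 and Krt10 among the largest falls under the naming rule. Cells of the skin surface express Krt1 and Krt10 when they leave the basal layer, and then the proteins of the cornified envelope, a barrier of cross-linked protein and lipid. Of 26 tested genes of early epidermal differentiation 14 fell and 1 rose (median log2 -1.01; 1 higher and 11 lower without the batch term, 0 and 12 without batch 3). Krt10 stood at 4.48, 3.19 and 4.81 CPM in EGF libraries and 129, 427 and 671 in RW libraries (log2 -6.38 ± 0.63, edgeR adjusted p = 4.19e-05). Krt1, its partner, was at 0.368, 0.175 and 0.164 against 94.98, 254 and 589.5 CPM (log2 -10.26 ± 1.00). In both, RW batch 1 was the lowest RW library, and all RW libraries were far above the EGF libraries. Dsg3, a desmosomal cadherin of the lower layers, fell, at 43.1 ± 9.601 CPM in EGF and 175 ± 62.1 in RW (log2 -1.92 ± 0.28; SD, n = 3). Dsg1a, that of the upper layers, was at 0, 0 and 0.164 against 11.4, 29.2 and 31.002 CPM (log2 -8.62 ± 0.58). Calm4, a calmodulin-like gene of keratinocytes, had 0 counts in all 3 EGF libraries and 4.295, 27.9 and 29.2 CPM in RW, at least 601-fold lower against a floor of 3 counts over the group. Desmosomal genes that simple epithelia share, such as Dsp, desmoplakin, were not called (778 ± 177 against 929.5 ± 359 CPM). In ERW medium Krt10 was at 6.03, 7.53 and 37.01 CPM. In these families reads of 50 bases can be shared between close copies, such as Dsg1a and Dsg1b or Krt6a and Krt6b, and how such reads were counted is not given in the sources used here. Krt6b lost its call without batch 2 (adjusted p = 0.103).

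Of 50 tested genes of the cornified envelope and lipid barrier 33 fell and 17 were not called (25 fell without the batch term, 16 without batch 3). Their median log2 was -3.40, or -3.33 with the 9 genes at 0 in EGF medium set at the bound that 3 counts allow. Genes at or near 0 in every EGF library, here and in the early list, passed the filter on counts through other groups. Such genes could be called only lower, so these counts and medians are partly set by the filter. Asprv1, the protease that cuts profilaggrin, was at 3.81, 3.51 and 5.53 CPM in EGF and 17.9, 42.5 and 43.7 in RW (log2 -2.95 ± 0.22, edgeR adjusted p = 9.82e-08). Klk7, a protease that loosens surface cells, was at 0, 0.281 and 0.720 against 2.82, 48.3 and 20.5 CPM (log2 -6.15 ± 0.88). Abca12 and Cers3, which serve the lipid barrier, had log2 -3.21 ± 0.35 and -1.61 ± 0.23. Pla2g2f, an epidermal phospholipase, had 0 counts in EGF libraries and 3.48, 14.7 and 13.6 CPM in RW, at least 311-fold lower against the same floor. The plakins Evpl and Ppl, precursors of the envelope, fell too (log2 -0.94 ± 0.13 and -1.32 ± 0.10). Ivl, involucrin, was at 48.5, 68.2 and 46.3 CPM in EGF and 25.2, 72.8 and 49.1 in RW and was not called. Of 7 stress and hair follicle keratins 5 fell (5 without the batch term, 4 without batch 3). Krt17 was at 87.5, 148 and 77.4 against 315, 1172 and 717 CPM (log2 -2.64 ± 0.32, edgeR adjusted p = 0.000156), Krt16 had log2 -4.15 ± 0.45 and Krt79, a keratin of the follicle opening, -3.86 ± 0.43. No called gene named here lost its call with 1 library or batch left out or without the batch term.

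The bases before the starts of Flg and Sprr1b are printed because both genes fell and both stretches match TGANTCA, the pattern used for AP-1. AP-1 sites are known in promoters of epidermal genes. Both matches read TGAATCA, and the pattern allows any middle base, so it is wider than the usual AP-1 site. Flg, profilaggrin, stood at 0, 0 and 0.0327 CPM in EGF libraries and 4.66, 19.3 and 24.5 in RW libraries (edgeR adjusted p = 0.00743). With 1 count over the 3 EGF libraries and 1439 over the RW libraries, its level in RW was 1429 times that in EGF, with a 95% exact interval of 256 to 56479 that covers counting error only. Its call was lost without EGF library 3 (adjusted p = 0.0923) and without batch 1 (0.103). Sprr1b, a small proline-rich envelope protein, was at 0.134, 0.561 and 0.295 against 1.28, 28.4 and 23.4 CPM (log2 -5.49 ± 0.63, edgeR adjusted p = 2.55e-05). Both stretches are from RefSeq on GRCm38, chr3:93273296-93273545 on the plus strand and chr3:92438780-92439029 on the minus strand, and capitals mark TGANTCA, 103 and 111 bases before the starts.
Flg: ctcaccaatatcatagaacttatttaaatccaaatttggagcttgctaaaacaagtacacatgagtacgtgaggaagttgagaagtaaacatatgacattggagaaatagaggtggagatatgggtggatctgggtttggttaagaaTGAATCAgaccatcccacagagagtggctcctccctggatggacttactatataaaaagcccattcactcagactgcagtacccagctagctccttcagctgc
Sprr1b: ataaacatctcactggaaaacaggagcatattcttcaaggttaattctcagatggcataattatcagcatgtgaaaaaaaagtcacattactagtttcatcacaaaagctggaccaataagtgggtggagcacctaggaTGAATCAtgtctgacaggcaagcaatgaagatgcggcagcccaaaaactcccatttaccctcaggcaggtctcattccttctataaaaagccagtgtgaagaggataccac

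**Figure D3:**
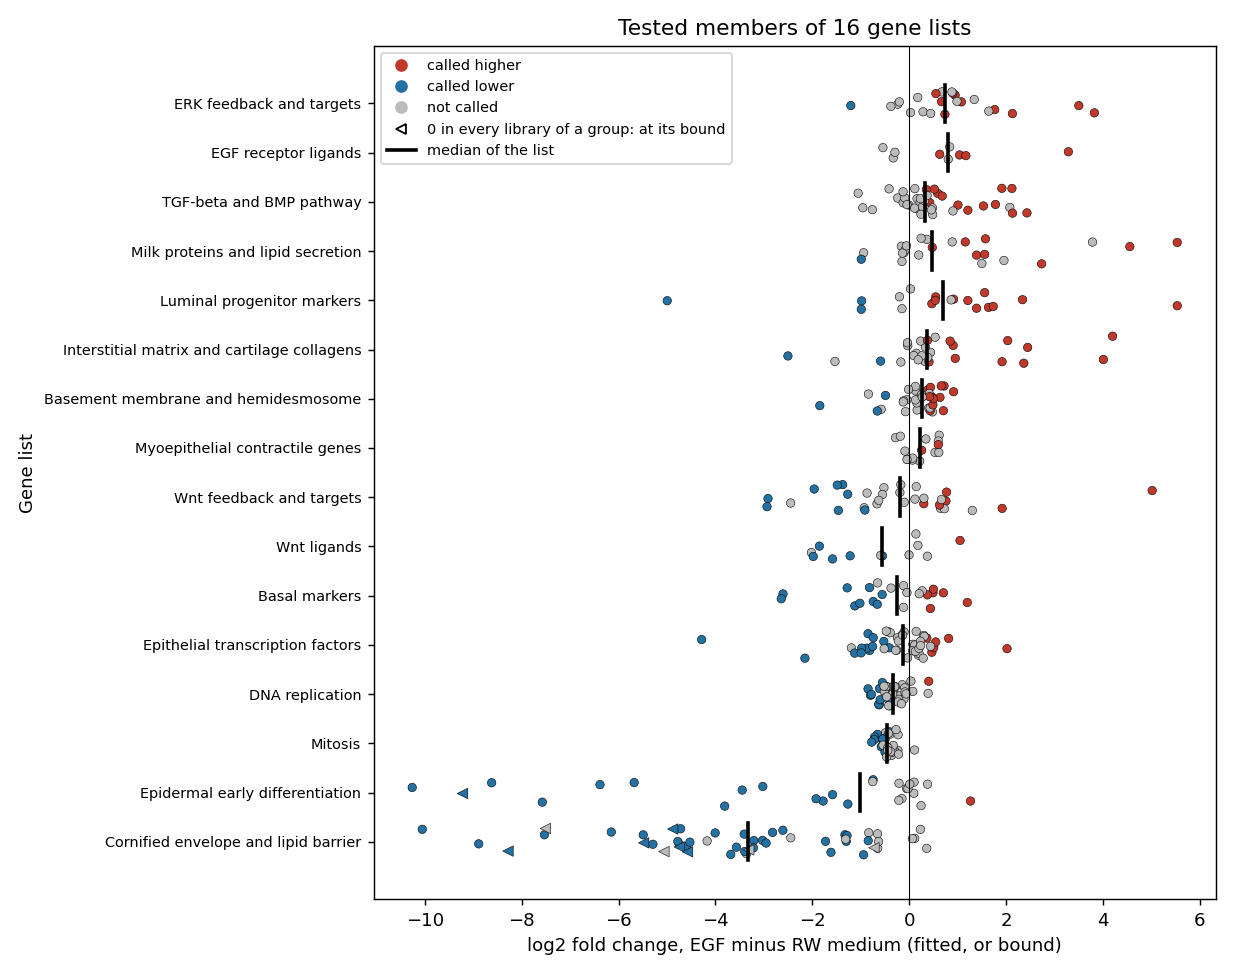
Log2 EGF minus RW of every tested member of 16 gene lists, 1 point per gene, coloured by call, with the median of each list as a bar and triangles for genes at 0 counts in a group, set at their bound. The epidermal and cornified envelope lists reach farthest below 0, and the ERK list lies mostly above it.

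Of 31 tested genes for oxidative stress and detoxification 3 rose and 10 fell (2 higher and 4 lower without the batch term, 1 and 5 without batch 3), and those that fell were alcohol, retinol and aldehyde dehydrogenases (Adh1, Adh7, Rdh10, Aldh1a1, Aldh3a1 and Aldh3b2), glutathione enzymes (Gpx2, Gsta3 and Gstm2) and the cytochrome P450 Cyp2f2. Adh7, which oxidises retinol, stood at 1.103, 1.65 and 1.47 CPM in EGF libraries and 6.95, 55.4 and 33.2 in RW libraries (log2 -4.20 ± 0.40, edgeR adjusted p = 3.37e-06). Aldh3a1, an aldehyde dehydrogenase of surface epithelia, was at 19.2, 23.7 and 27.8 against 28.3, 55.6 and 59.1 CPM (log2 -0.97 ± 0.16) and Aldh3b2 had log2 -1.81 ± 0.28. Of the enzymes that form retinoic acid, Aldh1a1 was at 2.27 ± 1.000 CPM in EGF and 8.29 ± 0.845 in RW (SD, n = 3), and Aldh1a3 went the other way. Cyp2f2 had log2 -1.19 ± 0.17. Leave-outs ended the calls of Adh1 (0.244, without batch 2), Rdh10 (0.0837, without batch 3), Gpx2 (0.365, without batch 2), Gsta3 (0.340, without batch 2) and Gstm2 (0.349, without batch 2), and the fit without the batch term those of Adh1 (0.698), Rdh10 (0.290), Aldh3a1 (0.0536), Gpx2 (0.583), Gsta3 (0.310) and Gstm2 (0.221).

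Cartilage-type collagens and other matrix genes rose. Of 27 tested genes of interstitial matrix and cartilage collagens 11 rose and 2 fell (6 higher and 1 lower without the batch term, 7 and 1 without batch 3). Col9a1, a chain of type IX collagen, stood at 70.3, 55.2 and 133 CPM in EGF libraries and 4.62, 3.69 and 5.08 in RW libraries (log2 4.20 ± 0.34, edgeR adjusted p = 4.38e-06). Col9a2 was at 471, 389 and 532 against 134, 63.8 and 84.9 CPM (log2 2.37 ± 0.23), Col11a1, a chain of type XI collagen, had log2 1.92 ± 0.17 and Col2a1, type II collagen, 4.01 ± 0.49. Fn1, fibronectin, was at 2465, 1534 and 1535 CPM in EGF and 963, 425 and 197 in RW (log2 2.04 ± 0.29). Fbn2, fibrillin 2, fell, at 22.997, 7.93 and 11.6 against 108, 42.4 and 81.8 CPM (log2 -2.50 ± 0.27, edgeR adjusted p = 2.70e-05). Fibroblast markers bear on this list, since Col3a1 stands on both: it was at 763, 224 and 539 CPM in EGF and 460.0, 154 and 186 in RW and its groups overlapped, while Dcn and Lum, further fibroblast genes, were at 28.1 ± 13.4 and 1.83 ± 1.62 CPM in EGF and 35.9 ± 17.5 and 2.49 ± 2.56 in RW and were not called. The summed fibroblast markers, given above, overlapped between the media but were higher in EGF medium within each of the 3 batches. This is the direction of the matrix genes that rose. Taken singly, the 15 markers had a median log2 of -0.0078, and 11 of them were not called. The part of fibroblasts in these differences was not tested. The highest adjusted p in a leave-out was over the threshold for Col3a1 (0.157, without batch 1), and without the batch term the call was lost for Fn1 (0.117) and Col3a1 (0.477).

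Of 36 basement membrane and hemidesmosome genes 13 rose and 3 fell (6 higher and 0 lower without the batch term, 7 and 1 without batch 3). Col4a6, a type IV collagen chain of epithelial basement membranes, was at 411, 333 and 352 CPM in EGF and 254, 226 and 187 in RW (log2 0.72 ± 0.08, edgeR adjusted p = 1.06e-05). Fras1, a basement membrane protein of skin, fell, at 5.18, 6.700 and 2.98 against 16.7, 23.2 and 12.2 CPM (log2 -1.84 ± 0.26). Of 22 matrix proteases and inhibitors 6 rose and 1 fell (2 higher and 1 lower without the batch term, 3 and 1 without batch 3). Timp1, an inhibitor of metalloproteases that ERK signals are known to induce, was at 87.6, 45.1 and 97.9 against 43.1, 16.4 and 17.5 CPM (log2 1.61 ± 0.26) and Mmp15, a membrane metalloprotease, had log2 0.75 ± 0.10. Bmp1, which trims procollagens, had log2 1.01 ± 0.13. The calls named here held in every leave-out, and that of Fras1 (0.0702) was lost without the batch term.

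Genes for the transport of water and ions changed in both directions. Of 18 tested members 7 rose and 5 fell (4 higher and 4 lower without the batch term, 4 and 3 without batch 3). Aqp5, the water channel of secretory glands, stood at 247, 223 and 230.5 CPM in EGF libraries and 50.7, 33.8 and 44.8 in RW libraries (log2 2.46 ± 0.11, edgeR adjusted p = 6.28e-10), 1 of the 6 smallest adjusted p among genes that rose. In ERW libraries it was at 258, 198 and 289 CPM. Aqp3, the water and glycerol channel of skin and basal cells, went the other way, at 6.65, 8.66 and 4.26 against 37.9, 118 and 90.5 CPM (log2 -3.48 ± 0.35, edgeR adjusted p = 3.03e-05), as did Aqp9, which also passes glycerol (log2 -2.85 ± 0.28). Ano1, a calcium-activated chloride channel, was at 508, 635 and 789.9 CPM in EGF and 221, 274 and 328 in RW (log2 1.23 ± 0.11). Atp1b1, a subunit of the sodium pump, had log2 0.89 ± 0.13 and Slc12a2, the cotransporter that brings chloride into secretory cells, 0.39 ± 0.07. The sodium channel subunits fell: Scnn1g was at 1.84, 4.67 and 3.47 against 16.5, 9.39 and 9.96 CPM (log2 -1.92 ± 0.37), Scnn1b had log2 -1.12 ± 0.34 and Scnn1a -0.74 ± 0.17. Cldn2, a claudin that forms pores for cations and water, was at 62.5, 23.2 and 50.3 CPM in EGF and 7.34, 2.35 and 5.64 in RW (log2 3.16 ± 0.19, edgeR adjusted p = 1.18e-08). Of all 17 claudin and tight junction genes 2 rose and 2 fell (1 higher and 0 lower without the batch term, 1 and 0 without batch 3). Among 23 amino acid and metal transporters 4 rose and 3 fell (2 higher and 0 lower without the batch term, 2 and 0 without batch 3), with Slc38a3, a glutamine carrier, at 36.9, 17.4 and 34.5 against 1.54, 0.967 and 1.86 CPM (log2 4.34 ± 0.22) and Slc39a14, a zinc and iron carrier, at log2 1.18 ± 0.15. Calls were lost in at least 1 leave-out for Scnn1b (0.349, without batch 1) and Scnn1a (0.138, without batch 1) and without the batch term for Slc12a2 (0.162) and Scnn1b (0.120).

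Several secreted defence proteins rose. Of 28 tested antimicrobial and acute-phase genes 8 rose and 2 fell (7 higher and 0 lower without the batch term, 6 and 1 without batch 3). Bpifb5, a secreted BPI-fold protein, stood at 47.2, 29.99 and 46.95 CPM in EGF libraries and 0.393, 0.760 and 1.06 in RW libraries (log2 5.80 ± 0.26, edgeR adjusted p = 8.23e-10), the largest rise under the naming rule. Its neighbour on chromosome 2, Bpifb1, was at 9.29, 5.297 and 9.53 against 0.131, 0.276 and 0.498 CPM (log2 4.70 ± 0.66). Lcn2, lipocalin 2, which binds bacterial siderophores, was at 3144, 3807 and 4857 CPM in EGF and 1533, 1223 and 1699 in RW (log2 1.39 ± 0.10). Cp, ceruloplasmin, was at 1004 ± 174 against 251 ± 45.6 CPM (log2 2.01 ± 0.13), Wfdc2 had log2 1.86 ± 0.17 and S100a8, a calprotectin subunit, 1.84 ± 0.24. S100a9, the other calprotectin subunit, had too few counts to be tested, with 0, 0 and 0 in EGF libraries and 8, 14 and 7 in RW libraries. Of 29 chemokines and cytokines 8 rose and 1 fell, 2 and 0 without the batch term. Cx3cl1, fractalkine, was at 1687, 1364 and 1627 against 557, 403 and 467 CPM (log2 1.72 ± 0.16), and Cxcl5, a neutrophil chemokine, at 70.998, 146 and 143 against 18.03, 19.8 and 14.4 (log2 2.73 ± 0.31, edgeR adjusted p = 8.19e-05). Csf3, the granulocyte growth factor, had log2 2.98 ± 0.33 and lost its call without the batch term (adjusted p = 0.0578). Of 14 markers of myeloid cells 1 was called: Cd14, which luminal progenitors also express, was at 789.8, 685 and 887 against 294, 189 and 287 CPM, while Csf1r, a defining gene of macrophages, was at 2.71, 2.49 and 10.3 CPM in EGF and 2.69, 2.87 and 5.24 in RW and was not called. None of 28 interferon-stimulated genes was called by edgeR, with 7 at an unadjusted p under 0.05 and 3 called by DESeq2, and the fit of the 6 compared libraries alone called 5 higher and 1 lower. Beside these, 4514 of all 17092 tested genes had an unadjusted p under 0.05 and DESeq2 called 3129.

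**Figure D4:**
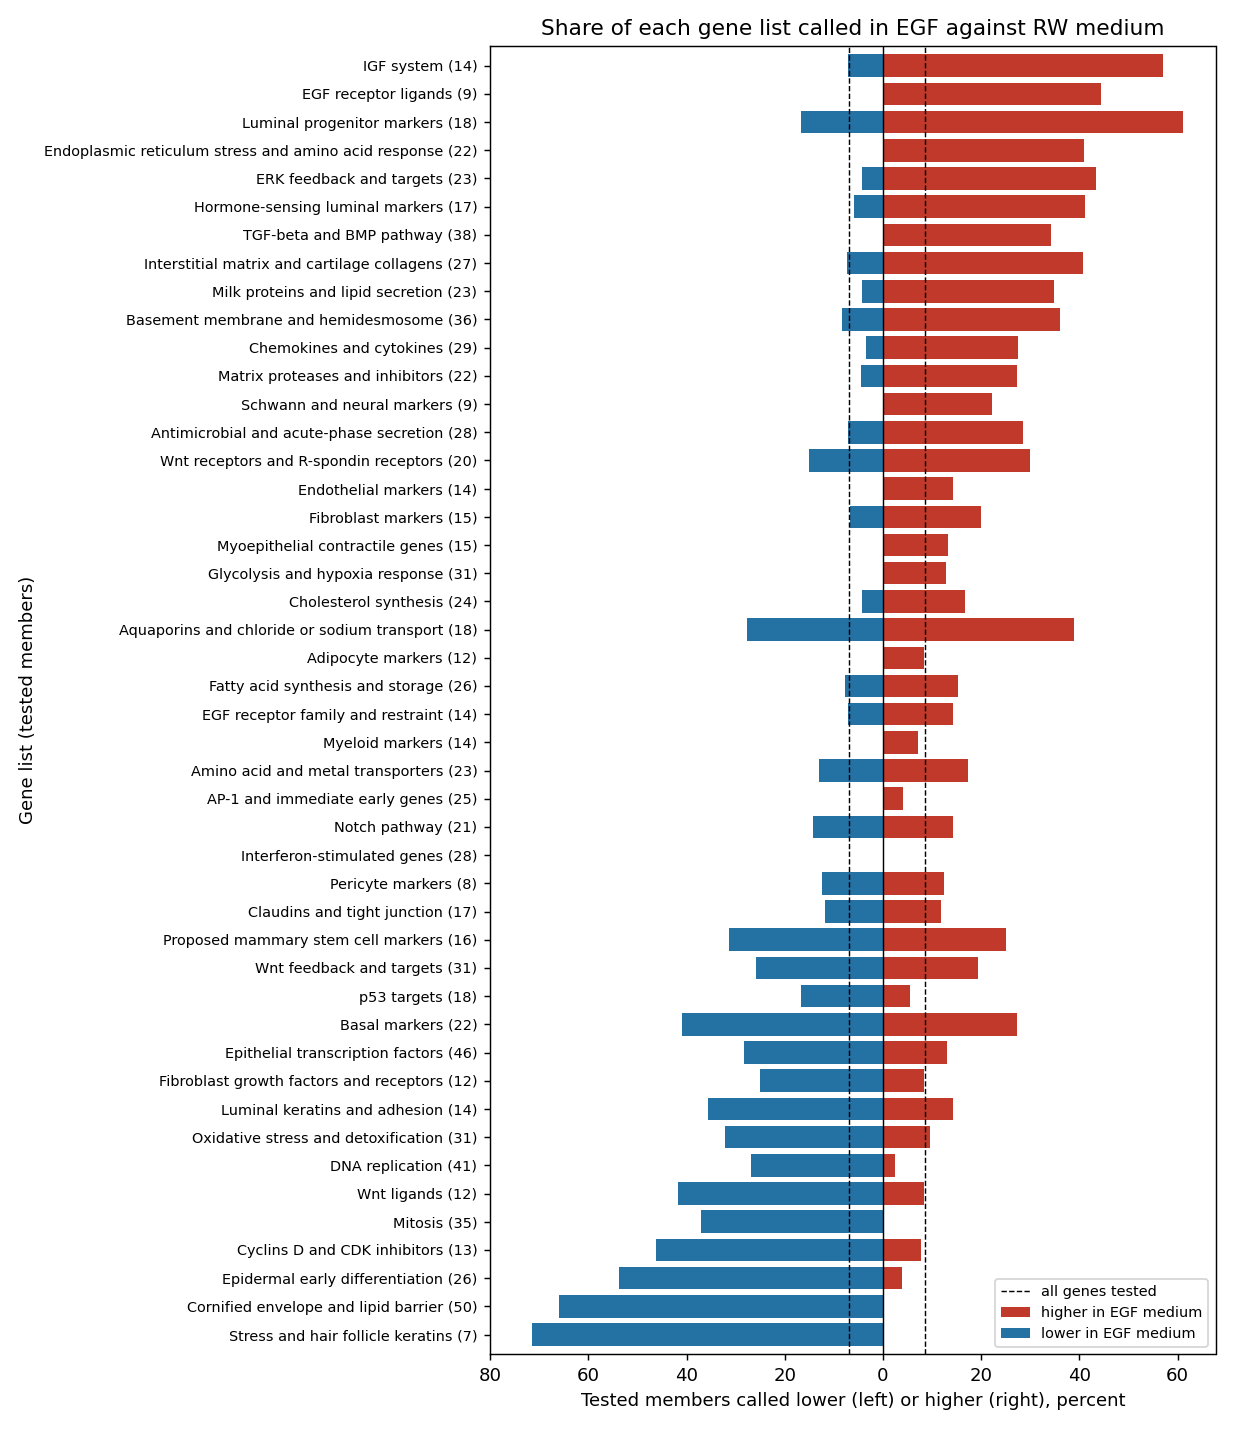
Share of the tested members of each gene list that was called higher (right) or lower (left) in EGF medium, in percent, with dashed lines at the shares of all tested genes, 8.52% and 6.92%. The cornified envelope list, with 33 of 50 members, and the stress keratins, with 5 of 7, stand farthest to the lower side. The lists were chosen with earlier results of these data known, so a share beyond the dashed lines is no independent support.

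Cell cycle genes fell by small amounts. Of 41 tested DNA replication genes 1 rose and 11 fell (median log2 -0.34), and of 35 mitosis genes 13 fell and 22 were not called (median log2 -0.45). Both counts depended on the batch term: without it Prim1, the primase subunit, was the only one of these 25 genes still called, and without batch 3 edgeR called 1 replication gene lower. They also went up, to 21 replication and 25 mitosis genes lower without EGF library 1, and to 18 and 19 without batch 1. Over all genes, these 2 fits called 1162 and 839 lower, against 1182 in the main fit. The summed replication genes stood at 1435, 1454 and 1483 CPM in EGF batches 1, 2 and 3 and at 1536, 2066 and 2236 in RW. Mki67, the proliferation marker, stood at 236, 281 and 213 CPM in EGF libraries and 271, 454 and 387 in RW libraries (log2 -0.58 ± 0.16, edgeR adjusted p = 0.0253), with overlapping groups. Mcm6, a subunit of the replicative helicase, was at 119, 122 and 134 against 166, 187 and 232 CPM (log2 -0.62 ± 0.11). The D-type cyclin Ccnd1, which lets cells pass into S phase and which both Wnt and ERK signals are known to induce, was at 309.5, 371 and 334 CPM in EGF and 745, 815 and 893 in RW (log2 -1.27 ± 0.09, edgeR adjusted p = 4.25e-08), without overlap. Its kinase partner Cdk6 had log2 -1.02 ± 0.09, and the inhibitor Cdkn1b fell as well (log2 -0.55 ± 0.09). Rb1, the restraint that cyclin D kinases remove, was higher (log2 0.64 ± 0.10). Myc was at 120.2, 92.4 and 132 CPM in EGF and 171, 147 and 387 in RW (log2 -0.91 ± 0.20). Leave-outs ended the calls of Prim1 (0.124, without batch 3), Mki67 (0.389, without batch 3) and Myc (0.157, without batch 3), and the fit without the batch term those of Mki67 (0.176), Mcm6 (0.156) and Myc (0.181).

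Of 31 glycolysis and hypoxia genes 27 were not called and 4 rose, among them Hk1, a hexokinase, at 496 ± 84.2 CPM in EGF and 276 ± 6.94 in RW (log2 0.83 ± 0.10), and Aldoc, an aldolase, at 246 ± 32.02 against 125 ± 18.8 (log2 0.98 ± 0.12; SD, n = 3). In this list DESeq2 called 9 higher and 1 lower, and the fit of the 6 compared libraries alone 13 and 2. Of 22 genes of endoplasmic reticulum stress and the amino acid response 9 rose and 13 were not called (2 rose without the batch term, 3 without batch 3). Those that rose are mainly folding proteins of the secretory route, such as Pdia4, a disulfide isomerase (log2 0.43 ± 0.06), and Hsp90b1, a chaperone (log2 0.38 ± 0.06). Trib3, a pseudokinase induced in the amino acid response, had log2 1.11 ± 0.15. Of 24 cholesterol synthesis genes 4 rose and 1 fell, and of 26 fatty acid genes 4 and 2. Without the batch term no gene of these 2 lists was called, and 2 cholesterol genes and 1 fatty acid gene rose without batch 3. Without the batch term the call of Hsp90b1 (0.104) was lost.

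Several transcription factors of epithelia fell. Of 46 tested 6 rose and 13 fell (1 higher and 8 lower without the batch term, 4 and 8 without batch 3). Runx3, a Runt factor, stood at 1.37, 1.26 and 1.08 CPM in EGF libraries and 20.1, 43.4 and 16.1 in RW libraries (log2 -4.28 ± 0.43, edgeR adjusted p = 9.28e-06). Barx2, a homeobox factor, was at 27.5, 47.1 and 30.5 against 131, 153 and 173 CPM (log2 -2.15 ± 0.15, edgeR adjusted p = 1.59e-07), 1 of the 6 smallest adjusted p among genes that fell. Klf5, a factor of proliferating epithelia, had log2 -1.12 ± 0.13. Pou3f1, a POU factor of keratinocytes that is not on the list, was at 0, 0.0702 and 0.327 CPM in EGF and 4.197, 7.803 and 12.5 in RW (log2 -6.05 ± 0.56). Snai1, a repressor linked to loss of epithelial traits, rose, at 34.2, 24.3 and 13.4 against 12.3, 5.21 and 2.39 CPM (log2 2.02 ± 0.21); its relative Snai2 fell (log2 -0.74 ± 0.20), and Zeb1 and Zeb2 were at 18.7 ± 3.27 and 40.3 ± 4.57 CPM in EGF and 15.3 ± 4.86 and 34.9 ± 6.75 in RW and were not called. The adjusted p in a leave-out was at most at the value given, over the threshold, for Snai2 (0.327, without batch 3), and without the batch term the call was lost for Snai1 (0.146).

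Some called genes lie next to one another. Runs of at least 4 consecutive tested genes called in the same direction numbered 8 for higher genes, with 32 genes, and 3 for lower genes, with 13 genes. The longest held Irx3, Irx3os, Crnde, Gm21817 and Irx5 on chromosome 8 from 91798525 to 92376286 (GRCm38), all lower, with log2 between -1.98 and -0.75. Irx3 and Irx5 encode Iroquois homeobox factors, and Irx3 was at 172, 216 and 186 CPM in EGF and 298, 299 and 374 in RW. A run of higher genes, Svopl, Atp6v0a4, Tmem213 and D630045J12Rik, lies on chromosome 6 from 37983739 to 38254009 with log2 between 1.75 and 2.21; Atp6v0a4, a subunit of the vacuolar proton pump, was at 555, 922 and 756 against 174, 165 and 139 CPM. Art4, Mgp, Arhgdib and Rerg, also on chromosome 6, from 136848451 to 137170497, were lower. Several keratin and barrier loci gave runs of 3 lower genes: Krt14, Krt16 and Krt17 on chromosome 11, Krt6b, Krt6a and Krt5 on chromosome 15, Flg, Hrnr and Rptn on chromosome 3, and Sbsn, Dmkn and Krtdap on chromosome 7. Irx3os overlaps the region of Irx3, and without a known strand setting the reads of overlapping genes cannot be told apart. Leave-outs ended the calls of Gm21817 (0.126, without batch 3), Svopl (0.0694, without batch 3), Tmem213 (0.0547, without batch 3), Art4 (0.113, without batch 1), Arhgdib (0.0606, without batch 2), Krt6b (0.103, without batch 2), Flg (0.103, without batch 1) and Hrnr (0.175, without batch 3), and leaving out the batch term those of Svopl (0.110) and Art4 (0.0853).

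Promoters were searched for 5 motifs on both strands, in 300 bases from 250 before to 50 after each RefSeq start, for the 11849 tested genes with an entry. TGANTCA, a wide form of the AP-1 motif with any base in the middle, was found in 6.72% of all of them. It was in 8.1% of the 1086 genes called higher and in 9.71% of the 896 called lower. CCGGAAGT, the ETS motif, was in 8.11% of all, 4.97% of the higher and 4.8% of the lower genes. CTTTGAT, for TCF/LEF, was in 3.06%, 2.85% and 3.91%, and TTCNNNGAA, for STAT, in 8.14%, 7.92% and 8.71%. TTTGGCGC, for E2F, was in 1.07%, 0.46% and 1.34%. Matches of different motifs can overlap. These shares were not tested, and a match is not a bound site.

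The genes that pass the naming rule beyond these lists add other functions. Among those that rose, Crispld2, a secreted protein, stood at 974, 965 and 1859 CPM in EGF libraries and 54.9, 38.4 and 64.1 in RW libraries (log2 4.55 ± 0.26, edgeR adjusted p = 2.59e-07). Slc29a1, a nucleoside carrier, was at 583, 426 and 548 against 177, 141 and 154 CPM (log2 1.71 ± 0.08, edgeR adjusted p = 6.28e-10). P3h2, which hydroxylates collagen, had log2 2.06 ± 0.11, and Trib2, a pseudokinase, 1.42 ± 0.08. Rtn1, a reticulon, had log2 4.40 ± 0.40 and Chn2, a protein that turns off Rac, 3.86 ± 0.21. Among abundant genes, Clu, the secreted chaperone clusterin, gained from 1063 ± 238 CPM in RW to 2367 ± 383 in EGF (log2 1.18 ± 0.13) and Fth1, ferritin heavy chain, from 2273 ± 227 to 3441 ± 508 (log2 0.59 ± 0.08; SD, n = 3). Among genes that fell, Rpl4, a ribosomal protein, lost a large level at a small ratio, from 1804 ± 205 CPM in RW to 1377 ± 157 in EGF (log2 -0.39 ± 0.06). Nrep, a neuronal regeneration protein, was at 24.7, 29.9 and 23.8 against 113, 127 and 161 CPM (log2 -2.36 ± 0.16, edgeR adjusted p = 9.82e-08). Crct1, a gene of the epidermal cluster on chromosome 3, had log2 -5.77 ± 1.26. No leave-out ended a call named here, and the fit without the batch term ended those of Rpl4 (0.239) and Crct1 (0.0830).

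The response to the media was also compared between genotypes. The interaction of genotype and medium (WT response minus RasGRP1-/- response) was called for 0 of 17092 genes by edgeR and for 0 by DESeq2, and 356 genes (2.08%) had an unadjusted p under 0.05. In RasGRP1-/- organoids Csn3 was at 624 ± 81.2 CPM in EGF and 21.2 ± 11.5 in RW, and Krt10 at 4.78 ± 1.29 and 234 ± 103 (SD, n = 3 each). The difference of the 2 responses was 0.57 ± 0.43 on the log2 scale for Csn3, 0.35 ± 0.55 for Axin2 and -0.72 ± 0.81 for Krt10 (WT minus RasGRP1-/-, ± SE), which leaves room for unequal responses of that size.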

How the data were processed

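RNA of mammary organoids was sequenced in 18 libraries, of which the 3 WT libraries in EGF medium and the 3 in RW medium are compared. The authors deposited raw read counts per Ensembl gene, with 28345745 to 31269899 counts in each of the 6 libraries. STAR, DESeq2 and GRCm38 are named in the submitters' processing notes, while for the counting tool, the annotation release and the strand setting the sources used here give nothing. A second deposited table holds, per the file headers, the authors' log2 fold changes and adjusted p-values, with gene symbols and GRCm38 positions. Per the authors' deposited table, 1682 genes are higher and 1444 lower in EGF medium of 15635 with an adjusted p, and of the genes called here 2624 (99.4%) are under 0.05 there with the same sign.

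TMM normalisation and all fits used edgeR 4.0.16 (R 4.3.3). Its filterByExpr kept 17092 genes at min.count 10 and min.total.count 15. All 18 libraries entered 1 robust quasi-likelihood fit with a mean per group and the batch as a block, which leaves 10 residual degrees of freedom. Tests are two-sided with Benjamini-Hochberg adjustment over all tested genes. Pairing by batch comes from the labels, and the deviations of same-numbered libraries correlated at 0.307, 0.257 and 0.290, against -0.0985 to -0.187 for the other pairs. Each gene was centred on its group mean, so positive values for same-numbered libraries force negative values elsewhere. The negative values therefore say nothing further about the pairing. On simulated data with 200 changed genes the fit was tested before use. The p-values rest on the spread within groups that the batch term leaves over all 18 libraries, shared between genes. That spread may be technical, since the labels do not name separate mice or cultures.

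The naming rule took called genes with a mean of at least 4 CPM, no overlap and no predicted symbol. From these came the 12 largest changes in each direction, the 10 largest gains and losses in CPM and the 6 smallest adjusted p. Members of 48 gene lists and runs of neighbours were added. Ly6e, Stfa3, Col17a1 and Krt19 passed the rule and are not described. The calls of Col17a1 and Krt19 were lost without the batch term (edgeR adjusted p = 0.0702 and 0.158). The lists and their members were chosen with earlier results of these data known. A gene at 0 in a group is given as a bound against 3 counts over the group. Promoters came from RefSeq on GRCm38.p6, with entries for 11849 of 16873 tested symbols. Alternatives were other scalings, filters, DESeq2 1.42.0, no block, the 6 or the 9 WT libraries alone, and leaving out libraries or batches.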

Additional observations from a re-analysis of the deposited data

How the results depend on the processing

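The batch term and batch 3 moved the counts most. With no replicate block 888 genes were called, 543 higher and 345 lower, all of them among the 2639, so the block changed the number of calls and no direction. Without EGF library 3 the counts were 1693 in all and 679 lower, and without all libraries of batch 3 they were 969, 639 higher and 330 lower. Over every single library or batch left out they ran from 969 to 2557 in all, 639 to 1395 higher and 330 to 1162 lower. The cause was not tested. The total counts of calls under other scalings and filters, DESeq2 (3129 genes) and fits of the 6 or 9 WT libraries stayed within 1.5 times, but counts within single lists moved by more, as for the AP-1, EGF receptor, glycolysis and interferon lists, and no called gene changed sign under any setting. No interaction was called under any setting run for it. Of 184 called genes named, 130 kept their call under every setting. The log2 difference changed sign in leave-outs for 4 genes that were not called: Csf1r (-0.25 to 0.71, and -0.11 without batch 3), Dcn (-0.77 to 0.013), Elf5 (-0.30 to 0.0015) and Ivl (-0.089 to 0.83, and -0.031 without EGF library 2). Runs of at least 3 genes numbered 32 higher and 20 lower, by construction more than runs of 4. In the 250 bases before the start alone, a shorter window, the motif shares of all tested genes were 6.03% for ETS, 6.02% for AP-1, 7.1% for STAT and 0.886% for E2F. Depth limits genes near 0: those with few counts in a group have ratios known only within wide bounds, and 3 libraries per group limit the power for small changes.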

Other observations

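Lists for other cell types held a few genes that rose. Flt1, a receptor for VEGF known from endothelial cells, stood at 77.5, 40.02 and 84.3 CPM in EGF libraries and 31.1, 12.9 and 15.999 in RW libraries (log2 1.79 ± 0.29 SE, edgeR adjusted p = 0.000817), without overlap. Plvap was the other endothelial marker called (log2 0.78 ± 0.22), and the other 12 tested were not called. Cidea, a lipid droplet protein known from brown fat and from mammary epithelium, was at 4.45, 3.403 and 5.07 CPM against 0.295, 0.829 and 0.763 (log2 2.75 ± 0.43, edgeR adjusted p = 0.000227), and the other 11 adipocyte markers tested were not called. The adipocyte list had a median log2 of -0.39. With the 6 compared libraries alone 1 member was called higher and 4 lower, beside 1392 and 1085 of all genes. Adipoq, the adipocyte hormone, was at 36.5, 67.1 and 26.9 CPM in EGF and 82.6, 125 and 45.01 in RW. Tnfsf10, the death receptor ligand TRAIL, was at 56.96, 38.1 and 73.7 against 29.6, 18.4 and 35.9 CPM (log2 1.00 ± 0.11). The call of Plvap was lost in a leave-out (adjusted p = 0.179), and without the batch term those of Plvap (0.378) and Tnfsf10 (0.107) were lost.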
